A study of Mus musculus with 18 samples.

Results

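The genes described here are 10 chaperones, folding enzymes and regulators of the endoplasmic reticulum (ER), out of 55487 gene rows in the count table: Hspa5, Hsp90b1, Calr, Canx, Pdia3, Pdia4, Pdia6, Dnajb9, Xbp1 and Sdf2l1. They were taken from a named list and matched by symbol to Ensembl identifiers, and all 10 were among the 13469 genes kept by the filter on low counts. The libraries come from im-TEC, a mouse tubular epithelial line made conditionally immortal with SV40 large T antigen; before seeding, every group was grown without interferon-γ at the restrictive temperature for 7 days. The 6 groups of 3 libraries were treated for 48 h with transforming growth factor β and S-adenosyl methionine together (TGFβ+SAM), with SAM alone (0.5 mM), with TGFβ and nicotinamide together (TGFβ+NAM), with NAM alone (1 mM), with TGFβ alone (10 ng/mL), or with none of these (control). The title of the series names NNMT, the enzyme that methylates NAM with SAM as the donor. The labels do not say whether libraries of a group came from separate cultures, so p-values measure the spread between these libraries, which may be technical.

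Secreted and membrane proteins are folded in the ER. BiP, encoded by Hspa5, binds unfolded chains and also holds the stress sensors IRE1, PERK and ATF6 in check; when unfolded protein builds up, the sensors are released and the unfolded protein response (UPR) begins. IRE1 splices Xbp1 messenger RNA, ATF6 is cut to a transcription factor, and PERK slows translation and raises ATF4. Chaperone genes are classical targets of ATF6 and spliced XBP1, which act at the ER stress response element (ERSE) of their promoters. Proximal tubule cells carry heavy secretory and membrane protein traffic, and UPR genes are known to be induced in injured tubules. Counts per gene do not separate spliced from unspliced Xbp1, and messenger RNA levels do not show the activity of the sensors.

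The promoters of the members that hold the ERSE are shown. In RefSeq promoters of GRCm38.p6, which run from 250 bases before to 50 bases after a gene's start, all 10 members were matched. The ERSE letters, CCAAT and CCACG with any 9 bases between them, searched on both strands, were found in 5 of 10 members and in 39 of all 32851 promoters (0.119%), a table that holds several starts for some genes. Capitals mark ERSE matches and, in Hspa5, also the match to the UPR element core TGACGTG.
Hspa5, chr2:34771840-34772139, plus strand: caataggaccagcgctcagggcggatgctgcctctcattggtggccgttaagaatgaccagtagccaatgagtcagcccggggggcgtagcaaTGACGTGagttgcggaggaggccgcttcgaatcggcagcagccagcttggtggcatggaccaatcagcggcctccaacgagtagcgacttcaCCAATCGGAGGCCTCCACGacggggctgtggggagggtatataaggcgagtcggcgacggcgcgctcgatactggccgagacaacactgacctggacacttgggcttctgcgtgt
Hsp90b1, chr10:86705395-86705694, minus strand: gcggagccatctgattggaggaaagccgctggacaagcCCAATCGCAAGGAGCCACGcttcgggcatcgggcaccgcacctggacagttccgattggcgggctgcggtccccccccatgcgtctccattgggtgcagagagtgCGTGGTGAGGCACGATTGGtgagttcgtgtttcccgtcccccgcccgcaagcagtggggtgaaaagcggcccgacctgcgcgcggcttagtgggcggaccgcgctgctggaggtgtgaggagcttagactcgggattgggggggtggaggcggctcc
Calr, chr8:84846882-84847181, minus strand: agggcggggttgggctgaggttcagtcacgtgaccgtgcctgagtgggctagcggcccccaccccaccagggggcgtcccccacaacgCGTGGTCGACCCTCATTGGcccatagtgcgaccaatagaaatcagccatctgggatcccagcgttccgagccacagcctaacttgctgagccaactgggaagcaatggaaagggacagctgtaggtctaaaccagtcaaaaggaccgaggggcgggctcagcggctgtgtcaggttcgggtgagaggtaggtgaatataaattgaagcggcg
Canx, chr11:50325624-50325923, minus strand: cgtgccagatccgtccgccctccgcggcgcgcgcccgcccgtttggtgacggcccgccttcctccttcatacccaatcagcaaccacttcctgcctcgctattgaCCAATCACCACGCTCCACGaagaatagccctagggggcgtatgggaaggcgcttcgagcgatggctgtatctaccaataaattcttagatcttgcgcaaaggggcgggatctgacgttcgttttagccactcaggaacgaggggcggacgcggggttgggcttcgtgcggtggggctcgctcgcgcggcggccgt
Pdia6, chr12:17266339-17266638, plus strand: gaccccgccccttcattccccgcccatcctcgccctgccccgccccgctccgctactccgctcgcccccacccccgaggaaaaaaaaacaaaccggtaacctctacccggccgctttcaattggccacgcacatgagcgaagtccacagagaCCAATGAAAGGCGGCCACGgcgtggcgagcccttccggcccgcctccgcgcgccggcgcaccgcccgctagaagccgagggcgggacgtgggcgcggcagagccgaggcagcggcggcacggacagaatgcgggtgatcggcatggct

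Counting the first transcribed base as 1, the match lay at -65 to -47 in Hspa5 and at -98 to -80 in Pdia6, on the strand of the gene. Hsp90b1 held a pair, at -212 to -194 on its own strand and at -107 to -89 on the opposite strand. Calr held a match on the opposite strand at -162 to -144, and Canx held its match on the strand of the gene at -145 to -127. The UPR element core was found in 1 of 10 members, Hspa5, at -157 to -151, and in 2.01% of all promoters. The second ERSE form, ATTGG and CCACG with any 1 base between them, was found in 0 of 10 members and in 12 of all promoters. A match describes the letters only; binding was not measured.

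Libraries held 4171170 to 7717626 reads assigned to genes, and 0.368% to 0.503% of these fell on the 10 members. Levels are given as CPM (counts scaled to library size), with trimmed-mean factors. QuantSeq 3′ libraries read the 3′ end of a transcript, so values were not divided by length and are compared only within a gene. NAM replicate 3 and TGFβ+NAM replicate 1 had the lowest shares of reads outside genes, 23.9% and 22.8%, against 24.9% to 28.2% in the other 16 libraries. The 3 libraries with SAM alone had the highest shares, 27.9%, 27.9% and 28.2%, against at most 27.3% elsewhere, and detected 15282 to 15470 genes, against 15984 to 16240 in control. TGFβ+SAM replicates 1 and 2 detected 15236 and 15273 genes, and TGFβ+SAM replicate 3 detected 15999. The 6 libraries with SAM carry a separate block of library numbers, so SAM and any difference in preparation cannot be told apart. SAM replicates 2 and 3 carry the treatment tags DIM. and LUN., which conflict with their titles. The tubular genes Pax8, Pax2, Cdh16, Aqp1 and Lrp2 were present, Aqp1 at 1031 CPM in control, while Epcam had no reads in any library and Cdh1 and Krt18 averaged 0.207 CPM each in control. Among markers of other cell types, the endothelial sum was at most 1.38 CPM, and Nphs1, Cd3e, Adgre1 and Lum had no reads. Other genes of those lists were present: Podxl at 80.7 CPM, Csf1r at 87.8 CPM and Cd68 at 13.6 CPM in control, and Col1a1 at 109 CPM in TGFβ and 5.10 CPM in control.

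Hspa5 and Hsp90b1, which encode 2 major soluble chaperones of the ER, were lower in the libraries with SAM, both with and without TGFβ. In SAM against control, 4 of 10 members were lower (Hspa5, Hsp90b1, Pdia6 and Xbp1) and 0 were higher, beside 6.79% of all tested genes lower and 5.02% higher. In TGFβ+SAM against TGFβ, 3 of 10 were lower (Hspa5, Hsp90b1 and Calr) and 0 were higher, beside 4.25% lower and 3.07% higher. All SAM libraries lay below all libraries without it for 6 of 10 members in SAM against control and for 8 of 10 in TGFβ+SAM against TGFβ, beside 16.2% and 11.9% of all tested genes. They lay above for 0 members in both, beside 15.4% and 11.2%. The median log2 change of the members was -0.19 and -0.22 in these comparisons, and that of all genes 0.00 and -0.01. The median SE was 0.10 for the members and 0.20 for all genes in both. A member is thus called more easily than a typical gene with the same change. Calls are those of edgeR's quasi-likelihood test at an adjusted p under 0.05 over all genes, and changes are log2 fold changes ± SE. DESeq2 also called no member higher with SAM in either comparison, beside 750 and 513 of 13469 genes. At an unadjusted p under 0.05 by edgeR there were 5 members in SAM against control and 6 in TGFβ+SAM against TGFβ, all lower. Over all 13469 genes tested, 3258 and 2724 had such a p, in either direction. Markers of cell types also moved with SAM. In SAM against control, tubular genes summed to 2169 to 2262 CPM in SAM and 1941 to 2029 CPM in control, immune genes to 114 to 132 CPM in SAM and 101 to 103 CPM in control, and fibroblast genes to 1.21 to 2.03 CPM in SAM and 3.29 to 7.09 CPM in control. Tubular genes moved both ways there, with Aqp1 higher (0.30 ± 0.10) and Lrp2 (-0.77 ± 0.12) and Krt8 (-0.62 ± 0.11) lower. In TGFβ+SAM against TGFβ, tubular genes summed to 776 to 884 CPM in TGFβ+SAM and 816 to 902 CPM in TGFβ, immune genes to 78.7 to 93.6 CPM in TGFβ+SAM and 55.8 to 73.8 CPM in TGFβ, and fibroblast genes to 37.8 to 50.5 CPM in TGFβ+SAM and 109 to 114 CPM in TGFβ. Called among them were Aqp1 (-0.89 ± 0.11), Col1a1 (-1.35 ± 0.16) and Cd68 (0.98 ± 0.28). Their part in the result was not tested, and in bulk RNA fewer cells of a type and less RNA per cell cannot be told apart.

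Hspa5 encodes BiP, the ER chaperone of the HSP70 family, and lies on chromosome 2 (34771970 to 34777547, plus strand in GRCm38). It was measured at 840, 969 and 917 CPM in SAM libraries, against 1401, 1385 and 1392 CPM in control libraries. With TGFβ present it was measured at 1048, 989 and 1055 CPM in TGFβ+SAM, against 1446, 1419.5 and 1431 CPM in TGFβ. All 6 SAM libraries lay below all 12 libraries without SAM, whose lowest value was 1342 CPM. Without TGFβ the log2 change with SAM was -0.62 ± 0.07, with an adjusted p of 2.49e-08 (edgeR). With TGFβ in both groups it was -0.47 ± 0.07, with an adjusted p of 6.72e-06. These are levels of 0.652 and 0.720 times those of the libraries without SAM.

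Hsp90b1 encodes GRP94, the ER member of the HSP90 family, and lies on chromosome 10 (86690209 to 86705509, minus strand). It was measured at 607, 636 and 588 CPM in SAM, against 926, 882 and 916 CPM in control, and at 658, 584 and 631 CPM in TGFβ+SAM, against 824, 771 and 871 CPM in TGFβ. The groups with and without SAM did not overlap in either background. The log2 change was -0.57 ± 0.08 (adjusted p = 1.01e-06) without TGFβ and -0.40 ± 0.08 (adjusted p = 0.000608) with it. A pseudogene on the opposite strand covers the 3′ end of Hsp90b1 and held 242 reads in all libraries together; the sources used here do not give whether counting used strand. Both genes kept their calls in all 15 alternatives of each comparison, with log2 changes of -0.73 to -0.57 and -0.61 to -0.55 against control.

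**Figure D1:**
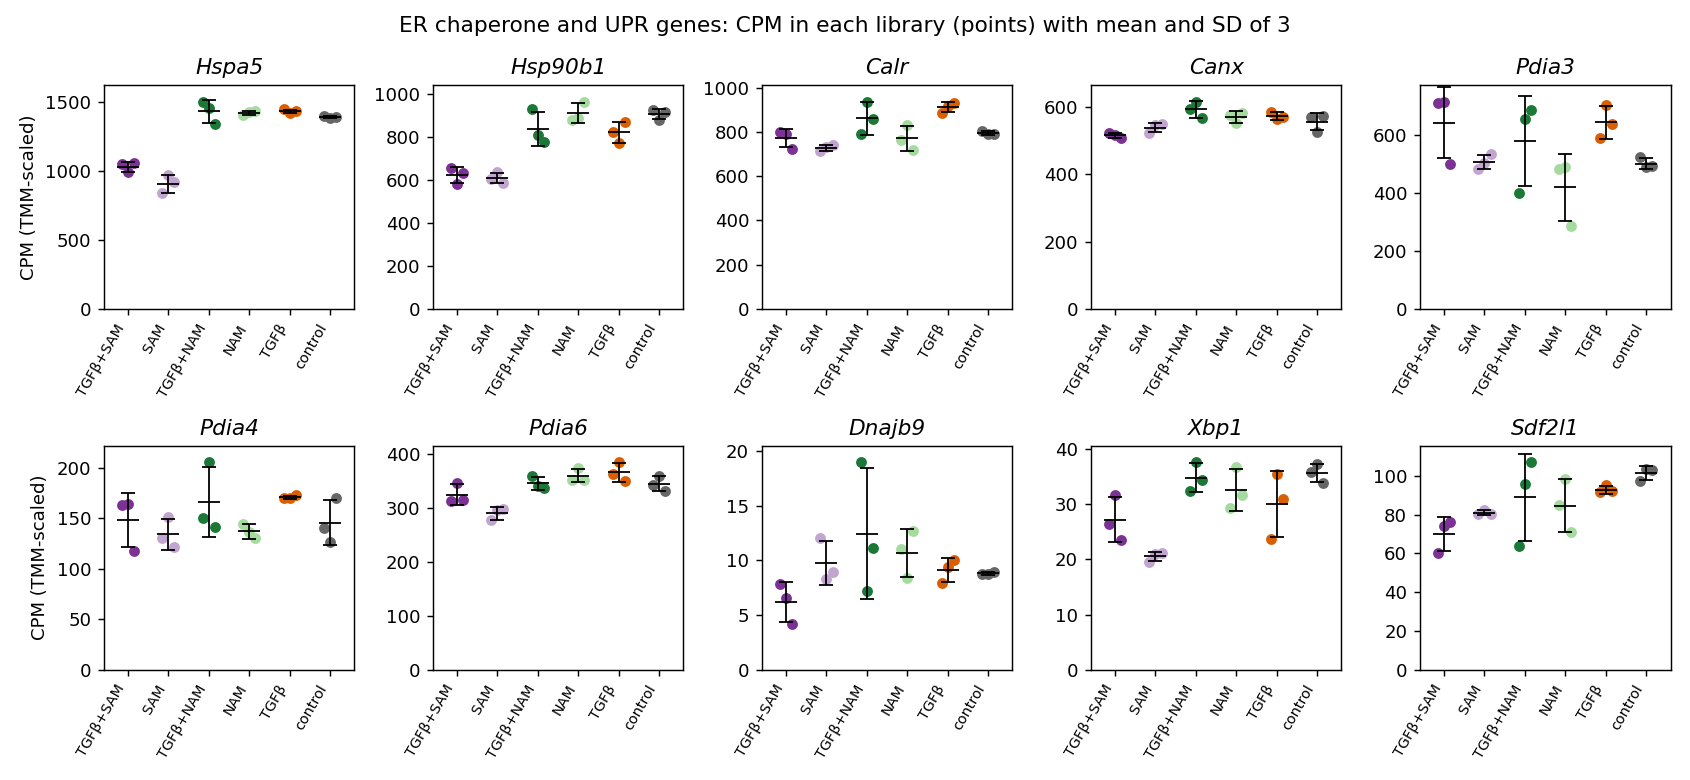
CPM (TMM-scaled, vertical axes from 0) of the 10 genes in each library of the 6 groups; points are libraries, the dash and bars the mean and SD of 3. Hspa5 lay between 840 and 1055 CPM in the 6 libraries with SAM and at 1342 CPM or more in the other 12, while Pdia3 varied within TGFβ+NAM from 401 to 686 CPM.

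The lectin chaperones gave smaller changes. Calreticulin (Calr), the soluble lectin chaperone that holds monoglucosylated glycoproteins and binds calcium, had 712, 733 and 739 CPM in SAM, against 805, 793 and 790.2 CPM in control. The groups did not overlap, but the log2 change of -0.13 ± 0.08 did not pass (adjusted p = 0.311). With TGFβ it had 799.6, 791 and 725 CPM in TGFβ+SAM, against 886, 919 and 933 CPM in TGFβ, a log2 change of -0.24 ± 0.08 (adjusted p = 0.0434). That call was near the threshold: it ended without any single one of the 6 libraries, with adjusted p of 0.0619 to 0.129. It also ended with library totals without further scaling, with no low-count filter, with only its own groups fitted and without SAM replicates 2 and 3. It was kept in 5 of 15 alternatives. Calnexin (Canx), the membrane-bound partner of calreticulin, had 539 ± 14.3 CPM in SAM and 556 ± 25.2 CPM in control, and 516 ± 6.68 CPM in TGFβ+SAM and 574 ± 11.9 CPM in TGFβ (SD, n = 3). Neither difference passed, with -0.05 ± 0.07 (95% interval -0.19 to 0.10) and -0.15 ± 0.07 (-0.30 to -0.00).

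Of the disulfide isomerases, which form and shuffle disulfide bonds, Pdia6 was lower with SAM alone. It had 277, 296 and 298 CPM in SAM, against 343, 359.6 and 332 CPM in control, groups that did not overlap (log2 change -0.25 ± 0.08, adjusted p = 0.0334). In TGFβ+SAM it had 325 ± 19.0 CPM and in TGFβ 366 ± 17.6 CPM (SD, n = 3), with -0.17 ± 0.08 and adjusted p = 0.204. The Pdia6 call against control ended without control replicate 1 or 2 or any SAM replicate, with adjusted p of 0.0607 to 0.148. It also ended with no low-count filter, and without SAM replicates 2 and 3 together, which leaves 1 SAM library. It was kept in 8 of 15 alternatives. Pdia3, the isomerase that works with the lectin chaperones, did not pass, with 508 ± 24.8 CPM in SAM and 502 ± 18.4 CPM in control (0.02 ± 0.14, 95% interval -0.27 to 0.31). Pdia4 had 134 ± 15.2 CPM in SAM and 146 ± 22.0 CPM in control (-0.12 ± 0.12, interval -0.37 to 0.13), and did not pass. With TGFβ, Pdia4 had 163, 164 and 117 CPM in TGFβ+SAM, against 170.0, 169.7 and 172 CPM in TGFβ (-0.20 ± 0.12, adjusted p = 0.373), and Pdia3 gave -0.00 ± 0.14 (interval -0.29 to 0.29).

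Xbp1, the transcription factor of the IRE1 branch, had 19.6, 20.9 and 21.2 CPM in SAM, against 35.9, 37.3 and 34.0 CPM in control. Those libraries held 386 reads of Xbp1 in SAM and 717 in control. The groups stood apart and the log2 change was -0.80 ± 0.17 (adjusted p = 0.000786), a call kept in all 15 alternatives. In TGFβ+SAM it had 26.4, 31.6 and 23.6 CPM, against 23.8, 35.5 and 31.0 CPM in TGFβ, ranges that overlapped (-0.14 ± 0.17, adjusted p = 0.696). The difference between the SAM effects on Xbp1 with and without TGFβ was 0.65 ± 0.24 on the log2 scale and did not pass over all genes (adjusted p = 0.213), so the effects are not shown to differ.

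Sdf2l1, a partner of the BiP co-chaperone ERdj3, had 80.5, 82.4 and 80.5 CPM in SAM, against 97.2, 104 and 103 CPM in control. In TGFβ+SAM it had 60.1, 74.1 and 76.0 CPM, against 91.5, 95.4 and 92.1 CPM in TGFβ. The libraries with SAM lay lower in both pairs, but neither difference passed, with -0.32 ± 0.13 (adjusted p = 0.107) and -0.41 ± 0.13 (adjusted p = 0.0533). Dnajb9, which encodes the BiP co-chaperone ERdj4, was counted with 111 to 232 reads a group. It had 9.75 ± 1.98 CPM in SAM and 8.80 ± 0.129 CPM in control, and 6.17 ± 1.83 CPM in TGFβ+SAM and 9.14 ± 1.11 CPM in TGFβ (SD, n = 3). Its SE was 0.30 and 0.32 on the log2 scale, and neither difference passed.

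**Figure D2:**
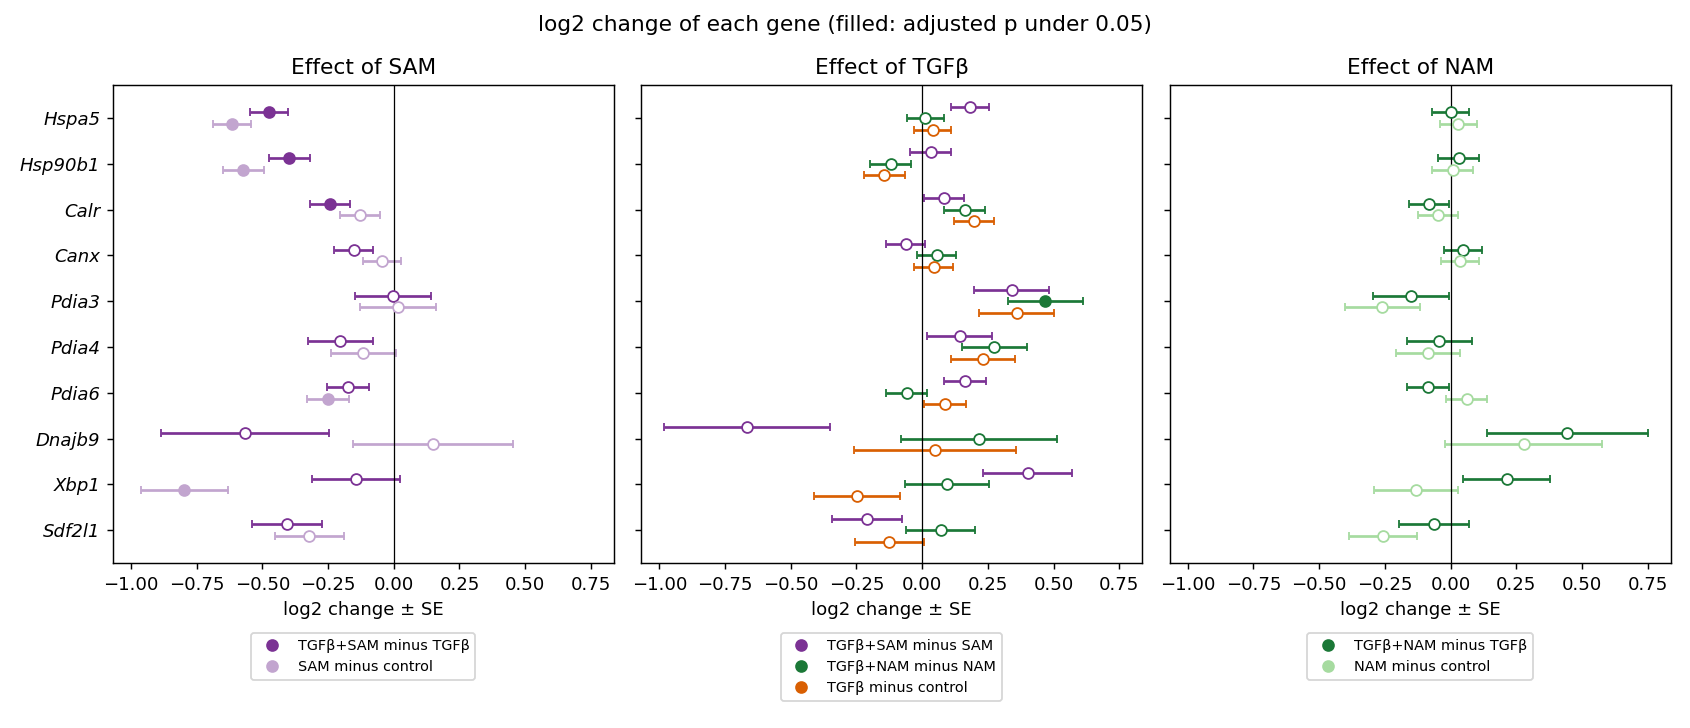
Log2 change ± SE (horizontal axis) of each gene for the effect of SAM, of TGFβ and of NAM; filled points passed an adjusted p of 0.05 and open points did not. With SAM, Hspa5 and Hsp90b1 changed by -0.62 and -0.57 without TGFβ and by -0.47 and -0.40 with it, and only Pdia3 passed for TGFβ, in the NAM background.

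TGFβ called none of the 10 members without a supplement. In TGFβ against control, 0 were higher and 0 lower by edgeR, beside 9.7% of all genes higher and 9.74% lower; 2 members had an unadjusted p under 0.05 and DESeq2 called 1. The TGFβ libraries lay above all control libraries for 3 members and below them for 2, beside 18.2% and 18% of all genes. Hspa5 was at 1432 ± 13.1 CPM in TGFβ and 1393 ± 8.01 CPM in control (SD, n = 3), a log2 change of 0.04 ± 0.07 with a 95% interval of -0.10 to 0.18. Hsp90b1 gave -0.14 ± 0.08 (interval -0.30 to 0.02). The nearest to a call were Calr, at 913 ± 23.8 CPM in TGFβ and 796 ± 7.94 CPM in control (0.20 ± 0.08, adjusted p = 0.0643), and Pdia3, with 589.7, 705 and 637 CPM in TGFβ against 523, 490.3 and 492 CPM in control (0.36 ± 0.14, adjusted p = 0.0754). For both, the TGFβ libraries lay above the control libraries, and both were called in a fit without NAM replicate 3 and TGFβ+NAM replicate 1. Tubular marker genes, which summed to 816 to 902 CPM in TGFβ and 1941 to 2029 CPM in control, and fibroblast marker genes, at 109 to 114 CPM in TGFβ and 3.29 to 7.09 CPM in control, moved in the same comparison; their part in these values was not tested.

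With SAM in both groups, TGFβ also called 0 of 10 by edgeR, beside 14.2% of all genes higher and 14.2% lower. Here 5 members had an unadjusted p under 0.05 by edgeR, beside 5046 of 13469 genes. DESeq2 called 1 member, beside 3994 of 13469 genes. The groups did not overlap for 3 members above and 3 below, beside 19.4% and 19.5% of all genes. Hspa5 had 1048, 989 and 1055 CPM in TGFβ+SAM, against 840, 969 and 917 CPM in SAM, with 0.18 ± 0.07 and adjusted p = 0.0506, at the edge of the threshold. Xbp1 had 26.4, 31.6 and 23.6 CPM in TGFβ+SAM, against 19.6, 20.9 and 21.2 CPM in SAM (0.40 ± 0.17, adjusted p = 0.0721). Both pairs of groups stood apart without reaching a call. Dnajb9 gave -0.67 ± 0.32 (adjusted p = 0.116).

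With NAM in both groups, Pdia3 was the 1 member called, beside 10.9% of all genes higher and 11% lower. It had 401, 654 and 686 CPM in TGFβ+NAM, against 483, 489 and 286 CPM in NAM, with 0.47 ± 0.14 and adjusted p = 0.0144. The ranges overlapped, and the lowest value of each group was in the library with few reads outside genes. Without NAM replicate 3 the change was 0.26 and the adjusted p 0.184, whereas without both of these libraries it was 0.46 with adjusted p = 0.000495. The call also ended without TGFβ+NAM replicate 2 (adjusted p = 0.0965) or replicate 3 (0.142), with DESeq2 (0.0964) and with only its own groups fitted. Pdia3 gave 0.36, 0.47 and 0.34 for TGFβ without a supplement, with NAM and with SAM, changes of like size of which 1 passed.

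NAM called none of the members. In NAM against control and in TGFβ+NAM against TGFβ, edgeR and DESeq2 called 0 of 10, beside 0.00742% and 0.0817% of all genes called by edgeR. At an unadjusted p under 0.05 by edgeR there were 0 members in both, beside 722 and 932 of 13469 genes. Hspa5 was at 1421 ± 14.5 CPM in NAM and 1393 ± 8.01 CPM in control, with 0.03 ± 0.07, and at 1433 ± 82.6 CPM in TGFβ+NAM and 1432 ± 13.1 CPM in TGFβ, with 0.00 ± 0.07 (SD, n = 3). The 95% intervals of these changes reached 0.17 and 0.14 at most. Pdia3 had the most negative NAM changes, -0.26 ± 0.14 and -0.15 ± 0.14. Sdf2l1 gave -0.26 ± 0.13 and -0.06 ± 0.13. The lowest Pdia3 values were 286 CPM in NAM replicate 3 and 401 CPM in TGFβ+NAM replicate 1, the libraries with few reads outside genes. The other replicates had 483 and 489 CPM in NAM and 654 and 686 CPM in TGFβ+NAM. Means were 502 CPM in control and 644 CPM in TGFβ.

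Set directly against NAM at its own dose, SAM called the same 4 members lower as against control, Hspa5, Hsp90b1, Pdia6 and Xbp1, and 0 higher, beside 7.83% of all genes lower and 6.56% higher. Doses differed, with 0.5 mM SAM and 1 mM NAM. The Pdia6 and Xbp1 calls ended without SAM replicates 2 and 3 (adjusted p = 0.0657 and 0.0851). With TGFβ in both groups, 3 members were lower and 0 higher, beside 4.47% and 3.68% of all genes. Hspa5 had 1031 ± 36.5 CPM in TGFβ+SAM and 1433 ± 82.6 CPM in TGFβ+NAM (-0.48 ± 0.07, adjusted p = 6.29e-06, n = 3), and Hsp90b1 changed by -0.43 ± 0.08. Dnajb9 was also called lower there, with 7.80, 6.52 and 4.19 CPM in TGFβ+SAM against 19.0, 7.21 and 11.1 CPM in TGFβ+NAM (-1.01 ± 0.31, adjusted p = 0.0361). Its ranges overlapped, and the call ended without TGFβ+NAM replicate 1 (-0.58, adjusted p = 0.390), TGFβ+SAM replicate 2 (0.0806) or TGFβ+SAM replicate 3 (0.150). In TGFβ+SAM against control, Hspa5 (-0.43 ± 0.07), Hsp90b1 (-0.54 ± 0.08) and Sdf2l1 (-0.53 ± 0.13) were lower and 0 members were higher, beside 14.1% of all genes lower and 12.5% higher. These comparisons share libraries with those above and are no independent evidence.

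The interaction tests ask whether TGFβ acted differently with a supplement. No member passed in either, with edgeR or DESeq2, beside 0% and 1.43% of all genes called by edgeR. At an unadjusted p under 0.05 by edgeR there were 0 members for NAM and 1, Xbp1, for SAM. Over all 13469 genes tested, 462 and 1403 had such a p. For Hspa5 the interaction with SAM was 0.14 ± 0.10 and for Hsp90b1 0.18 ± 0.11, so the SAM effects with and without TGFβ are not shown to differ.

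Within groups, the members did not deviate as 1 set: of 45 pairs 22 correlated positively, with a median r of -0.01. The pairs named here are among the extremes. Deviations of log2 CPM from the group mean, over 18 libraries, correlated at 0.84 between Calr and Pdia3, at 0.66 between Pdia3 and Sdf2l1 and at 0.60 between Hspa5 and Hsp90b1. They correlated at -0.78 between Hsp90b1 and Sdf2l1, at -0.75 between Dnajb9 and Sdf2l1 and at -0.69 between Hsp90b1 and Pdia3. Members of a library share its depth and scaling, and the values are a description. Without NAM replicate 3 and TGFβ+NAM replicate 1, r was 0.62 for Calr and Pdia3, -0.34 for Pdia3 and Sdf2l1, 0.50 for Hspa5 and Hsp90b1, -0.46 for Hsp90b1 and Sdf2l1, -0.40 for Dnajb9 and Sdf2l1 and -0.27 for Hsp90b1 and Pdia3. The positive link of Pdia3 with Sdf2l1 thus rested on those libraries, while all other pairs named kept their sign, each with an r of smaller size.

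**Figure D3:**
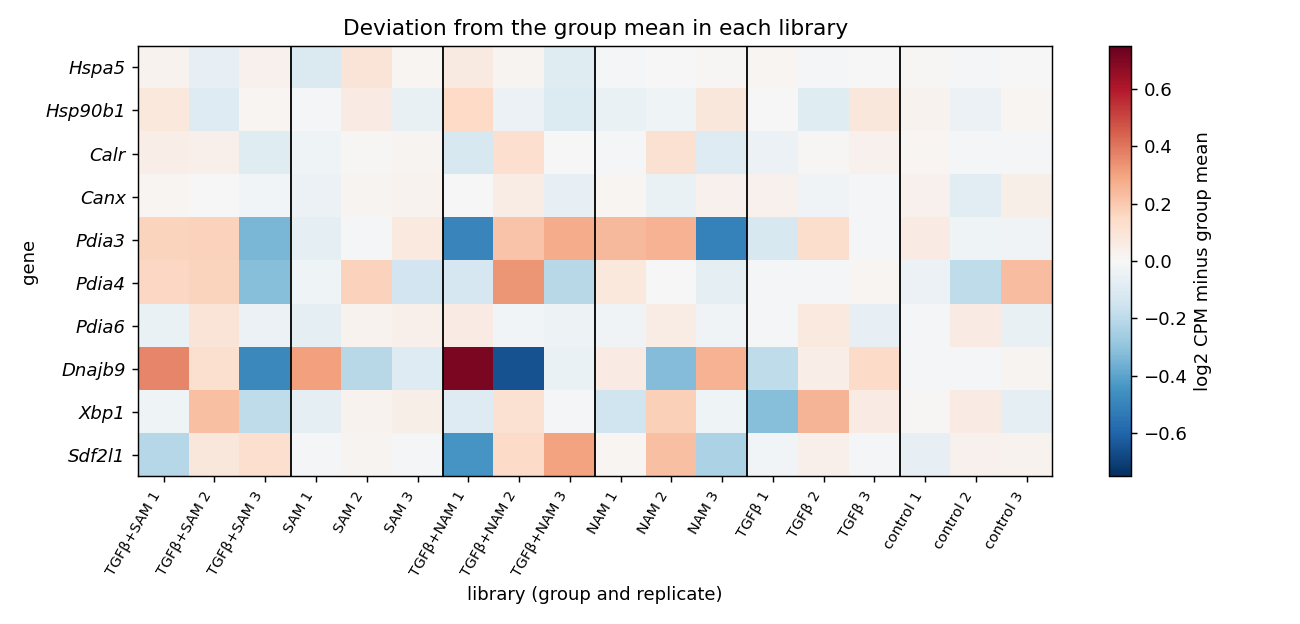
Log2 CPM minus the group mean (colour) for each gene (rows) in each of the 18 libraries (columns, grouped by black lines). Pdia3 lay 0.51 below its group mean in NAM replicate 3 and 0.49 below it in TGFβ+NAM replicate 1.

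Beyond the members, genes of other ER steps were counted from lists. Over all genes tested, 6.79% were called lower in SAM against control and 5.02% higher. The sensors and transducers of the UPR had 0 of 10 called in SAM against control, and the other ER chaperones 1 of 16, Dnajc3, a BiP co-chaperone, which was lower at 121 ± 10.9 CPM in SAM and 167 ± 8.81 CPM in control (n = 3). Of 16 other disulfide and proline isomerases 3 were lower and 0 higher (median -0.27): P4hb, the founding disulfide isomerase, changed by -0.40 ± 0.09, Erp29 by -0.38 ± 0.09 and Erp44 by -0.58 ± 0.16. Of 17 genes of ER import, 5 were lower (median -0.25), among them Spcs3 of the signal peptidase, with -0.72 ± 0.15, and the channel subunit Sec61a1, with -0.30 ± 0.08. Of 11 oligosaccharyltransferase genes, which attach N-glycans, 4 were lower (median -0.23), with Ostc at -0.56 ± 0.10 and Krtcap2 at -0.37 ± 0.08. The glycoprotein folding cycle (11 genes) and ER-associated degradation (17 genes) had 0 called. In TGFβ+SAM against TGFβ, 0 isomerase, 3 import and 1 oligosaccharyltransferase genes were lower and 0 higher, with medians of 0.01, -0.10 and -0.09. The sensors, the other chaperones and ER-associated degradation had 1 lower each there, and the folding cycle 0. Over all genes, 4.25% were lower there and 3.07% higher. In SAM against control, the median over all genes was 0.00. Without SAM replicates 2 and 3, which leaves 1 SAM library assumed to vary like the other groups, 0 isomerase, 0 import and 2 oligosaccharyltransferase genes were called, and Dnajc3 was not.

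A list of cytosolic heat shock genes, which also holds the mitochondrial Hspe1, was counted in the same way. Of 11, 5 were lower in SAM against control and 4 in TGFβ+SAM against TGFβ, beside 6.79% and 4.25% of all genes. Hsp90ab1, the constitutive cytosolic HSP90, had 1944 ± 53.1 CPM in SAM and 2775 ± 90.9 CPM in control (-0.51 ± 0.07), and 2517 ± 107 CPM in TGFβ+SAM and 3351 ± 342 CPM in TGFβ (-0.41 ± 0.07, n = 3). Hsp90aa1 changed by -0.50 ± 0.09 and -0.44 ± 0.09, and the co-chaperone Bag3 by -0.48 ± 0.11 and -0.56 ± 0.11. Without SAM replicates 2 and 3 the count against control was 1 of 11, and that in TGFβ+SAM against TGFβ was 4. Whether the ER and the cytosolic chaperones moved for the same reason was not tested.

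The PERK and ATF4 arm did not move as 1 block. In SAM against control, 2 of 11 were higher, the stress regulator Sesn2 (0.73 ± 0.17) and the transcription factor Cebpb (0.55 ± 0.15), and 1 was lower, Nupr1, a stress-induced chromatin protein (-0.91 ± 0.15); without SAM replicates 2 and 3 none of the list was called. In TGFβ against control 4 of 11 were lower, beside 9.74% of all genes and with 2 to 5 over the alternatives, among them Nupr1 (-0.60 ± 0.15), Atf3 (-0.74 ± 0.21) and Ddit3, which encodes the proapoptotic factor CHOP (-0.37 ± 0.12). In TGFβ+SAM against SAM 3 of 11 were lower, beside 14.2% of all genes, with Ddit3 at 81.6 ± 4.85 CPM in TGFβ+SAM and 138 ± 21.4 CPM in SAM (n = 3). In TGFβ+SAM against TGFβ 3 of 11 were lower and 0 higher, beside 4.25% and 3.07% of all genes. No gene of this list was called higher by TGFβ in any of the 3 backgrounds with edgeR.

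TGFβ raised single genes of the ER machinery. Creb3, a membrane-bound transcription factor related to ATF6, had 88.1 ± 14.3 CPM in TGFβ and 57.5 ± 7.22 CPM in control (0.61 ± 0.12, n = 3), and Edem1, which sends misfolded glycoproteins to degradation, had 54.9 ± 7.17 CPM in TGFβ and 34.5 ± 3.58 CPM in control (0.67 ± 0.13). Edem1 also rose by 0.53 ± 0.13 with NAM and by 0.56 ± 0.13 with SAM present in both groups. In the SAM background, 9 of 17 ER import genes and 7 of 11 oligosaccharyltransferase genes were higher with TGFβ, beside 14.2% of all genes, and 1 of each was lower, Sec62 (-0.88 ± 0.09) and Stt3b (-0.79 ± 0.11). The medians were 0.31 and 0.33, beside 0.00 for all genes, and without SAM replicates 2 and 3 the counts higher were 5 and 5. Without a supplement the counts were 3 and 0 higher and 1 and 1 lower, beside 9.7% and 9.74% of all genes, and the 3 import genes became 1 to 4 over the alternatives. The interaction of TGFβ with SAM called 0 genes of either list, so the responses are not shown to differ.

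**Figure D4:**
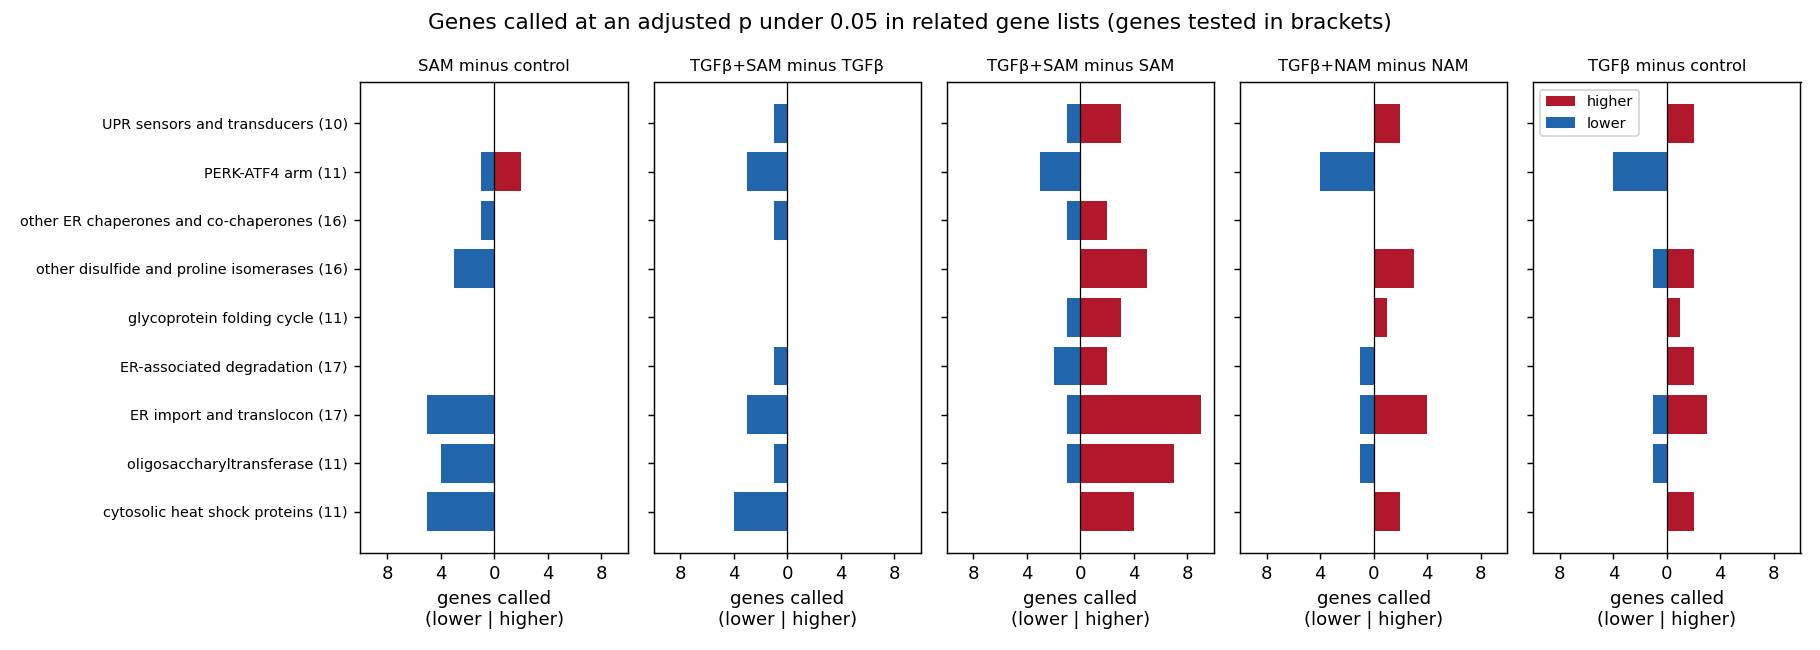
Number of genes called lower (left, blue) and higher (right, red) at an adjusted p under 0.05 in 9 lists of related genes, with the number tested in brackets, for the 2 SAM and the 3 TGFβ comparisons. In SAM against control the ER import, oligosaccharyltransferase and cytosolic heat shock lists had 5, 4 and 5 genes lower and 0 higher.

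Among 6977 other named genes at 20 CPM or more, those whose log2 CPM followed Hspa5 most closely over the 18 libraries were S100a4 (r = 0.966), S100a10 (0.960), Psmb4 (0.954), Slc31a2 (0.948) and Lasp1 (0.947). They encode a pair of S100 family proteins, a proteasome subunit, a copper transporter and an actin-binding protein. The libraries fall into groups, so these values largely describe group differences. For deviations from group means the 5 closest to Hspa5 were Cyp1b1 (0.920), Btbd10 (0.898), Taf1d (0.895), Bud31 (0.854) and S100a4 (0.847), of which S100a4 is in both sets. For the mean of the 10 standardized members they were Samd4 (0.956), Zranb2 (0.955), Enah (0.949), Trim25 (0.928) and Tgm2 (0.907) over all libraries, and Ncl (0.885), Arcn1 (0.855), Ubr4 (0.841), Med13l (0.833) and Atp7a (0.830) for deviations.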

How the data were processed

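Polyadenylated RNA was sequenced as QuantSeq 3′ libraries, per the labels' protocols. The deposited values are raw counts of reads for each gene. The submitters' processing notes list STAR, HTSeq and GRCh38, although the identifiers are mouse Ensembl. The sources used here give neither versions nor a strand setting. Of 55487 gene rows, 55141 matched a symbol; gene coordinates are from GENCODE M21 (GRCm38). Of 5 special rows 2 held reads, those outside genes (22.8% to 28.2% of a library) and ambiguous ones (0.607% to 0.779%), and both were left out. Total gene counts of 4171170 to 7717626 set the precision, though the labels name no molecular identifiers, so PCR copies may be counted more than once.

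Groups follow the titles. The counts were tested with edgeR 4.0.16 in R 4.3.3 (TMM, filterByExpr with a minimum count of 10, 1 quasi-likelihood fit of 18 libraries with a term per group) in 10 comparisons and 2 interactions, two-sided, with Benjamini-Hochberg adjustment over all genes. SE and 95% intervals come from that fit; log2 CPM used a prior count of 2. An exact permutation of 3 against 3 cannot give a p below 0.1. The fits were tested on simulated data. There, 32% of 100 genes changed 1.5 times in SAM against control were called, and 100% of the 11 at 100 CPM or more. Of 111 calls, 6 were false. The simulated counts were independent, with a spread set by expression level alone and no difference in preparation. Recovery in the real libraries may thus be lower. The alternatives were other scaling, DESeq2 1.42.0, other filters, fewer libraries and a replicate block. Same-numbered libraries did not deviate together (r of -0.10 to 0.07), so numbers were not used as pairs.

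Members were followed in every comparison, and up to 3 genes per direction with the smallest p were named from each list. Members and lists were chosen with earlier results of these data known.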

Additional observations from a re-analysis of the deposited data

Results flagged for a closer look

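Atf3, a stress-induced transcription factor of the PERK and ATF4 list, responded to TGFβ by a different amount with SAM than without it. It had 4.55 ± 1.17 CPM in TGFβ+SAM and 32.3 ± 3.48 CPM in SAM, and 15.1 ± 3.76 CPM in TGFβ and 25.1 ± 1.88 CPM in control (SD, n = 3). The interaction was -2.10 ± 0.32 on the log2 scale (edgeR, adjusted p = 3.98e-05) and kept its call in all 21 alternatives, from -2.31 to -1.95. The difference between the TGFβ effects with and without SAM was what drew attention to it. None of the 10 members passed an interaction test.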

How the results depend on the processing

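For Hspa5 and Hsp90b1, direction and call were kept in all 15 alternatives of SAM against control, TGFβ+SAM against TGFβ, TGFβ+SAM against control, SAM against NAM and TGFβ+SAM against TGFβ+NAM, and no result reversed. Counts of members called that moved by over 1.5 times were these. TGFβ against control (0) gave 1 with DESeq2, 1 with no low-count filter, 2 with only its own groups fitted and 2 when NAM replicate 3 and TGFβ+NAM replicate 1 were dropped. TGFβ+NAM against NAM (1) gave 0 with DESeq2 and 0 with only its own groups, and 0 to 3 leaving out 1 library. TGFβ+SAM against SAM (0) gave 1 with DESeq2-type size factors, with DESeq2, with no filter, with a minimum count of 50, with only its own groups and without SAM replicates 2 and 3, and 2 when NAM replicate 3 and TGFβ+NAM replicate 1 were dropped; leaving out 1 library it gave 0 to 2. SAM against NAM (4) gave 2 without SAM replicates 2 and 3. Within 1.5 times, SAM against control (4) ranged from 3 to 6, TGFβ+SAM against TGFβ (3) and TGFβ+SAM against TGFβ+NAM (3) from 2 to 4, and TGFβ+SAM against control (3) from 3 to 4. The cause was not tested.

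Over all genes, calls fell to 466 without SAM replicates 2 and 3 in SAM against control, against 1591 with them, with 31.8% of calls higher against 42.5%. They fell to 2258 against 3824 in TGFβ+SAM against SAM, to 639 against 1937 in SAM against NAM and to 63 against 193 in the SAM interaction. NAM against control had 1 call, 15 with DESeq2 and 15 with no filter. TGFβ+NAM against TGFβ had 11, 40 with DESeq2, 32 with no filter, 20 when NAM replicate 3 and TGFβ+NAM replicate 1 were dropped, 0 with only its own groups and as few as 3 leaving out 1 library. Without TGFβ replicate 3 or TGFβ+SAM replicate 1 or 2, TGFβ+SAM against TGFβ had 630 to 653 against 986. TGFβ+SAM against TGFβ+NAM had 667 with only its own groups and 696 and 705 without TGFβ+SAM replicates 1 and 2 in turn, against 1097. SAM against NAM had 1272 without NAM replicate 3. With a replicate block, TGFβ+SAM against TGFβ called 4 members against 3 (Sdf2l1 added, adjusted p = 0.0397), and the other comparisons kept their counts; 6 of 18 libraries correlated best with their own number. Dnajb9 had 111 to 232 reads a group; its libraries held 107, 45 and 62 reads in TGFβ+NAM and 62, 61 and 53 in control.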
